A study of Mus musculus with 12 samples.

Results

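Slc2a2, Abcc8, Kcnj11, Pcx, Gpd2 and Ucn3 are 6 genes that link glucose to electrical activity and to paracrine signalling in pancreatic beta cells. They were chosen by name, as genes of glucose entry, anaplerosis, the glycerol phosphate shuttle and the ATP-sensitive potassium (KATP) channel together with the beta cell peptide urocortin 3. Earlier results of these data were known when the choice was made. All 6 are among the 38561 genes of the deposited count table, and 6 of 6 passed the filter on low counts that left 15352 genes for testing. Isolated islets of 12 male mice aged 11 weeks were sequenced, 1 library per mouse, to compare islets of non-obese diabetic (NOD) mice with those of a C57BL/10 control strain where no adaptive immune infiltrate can form. The 4 groups of 3 mice are called B10, B10_insHEL, NOD and NOD_insHEL. B10 mice carry the C57BL/10SnSg background and NOD mice the NOD/LtJ background, each with the H2k major histocompatibility haplotype. All 4 groups, controls included, carry the Ragtm1Mom allele in the homozygous state, which leaves a mouse without mature T and B cells while innate leukocytes remain, and all were labelled normoglycemic. The insHEL groups also carry the transgene B6-Tg(ILK3mHEL)3Ccg, which expresses a membrane form of hen egg lysozyme from an insulin promoter and so in beta cells. The count table has no entry for the construct, and the transgene itself was not measured. During digestion of the pancreas, α-amanitin and actinomycin D were added to block transcription, and islets were purified on a density gradient and picked by hand, 20 to 137 per mouse.

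Beta cells take up glucose through the carrier GLUT2 (Slc2a2), break it down and raise the ratio of ATP to ADP, which closes the KATP channel, depolarises the membrane and triggers insulin release. The KATP channel is an assembly of pore subunits (Kir6.2, from Kcnj11) and regulatory sulfonylurea receptors (SUR1, from Abcc8), and it is the target of sulfonylurea drugs. Pyruvate carboxylase (Pcx) feeds pyruvate into the citric acid cycle as oxaloacetate, the mitochondrial glycerol-3-phosphate dehydrogenase (Gpd2) carries cytosolic reducing equivalents to the respiratory chain, and urocortin 3 (Ucn3) is co-released with insulin and acts on neighbouring delta cells to promote somatostatin release.

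Library totals ranged from 2212062 to 21138456 counts, the shallowest being NOD_insHEL replicate 3 and the deepest B10 replicate 2. Expression is given below as CPM, a gene's count as a share of its library on a common scale, with libraries scaled by the trimmed mean of M values (TMM). The 12 beta cell markers were detected in every group, and their summed level, most of it insulin RNA, ran from 186375 to 207576 CPM in B10, from 208283 to 276709 in B10_insHEL, from 257192 to 264561 in NOD and from 265967 to 296985 in NOD_insHEL. Of 7 T and B cell markers 4, among them Cd3e, Cd3d and Ms4a1, were at 0 in every library, and the 7 summed to between 0.619 and 3.76 CPM per library, most of it Cd79a (4 to 40 counts). RNA of exocrine acinar cells differed between groups: the 14 acinar markers summed to between 3158 and 4065 CPM in the B10 group. They summed to between 133 and 236 CPM in NOD and to between 53.6 and 91.0 CPM in NOD_insHEL, with Amy2a5 at 0 throughout. In B10_insHEL the sum ran from 41.5 to 2198 CPM, and replicate 2 was the high library. An acinar score, the mean log2 CPM over the 13 markers tested, was 7.55 to 7.90 in B10 and 7.07 for replicate 2 of B10_insHEL. The other 8 libraries scored 1.33 to 3.84. Within groups the score spread widely only in B10_insHEL (1.33 to 7.07). Fits with the score as a covariate therefore lean largely on replicate 2 of that group. The sample descriptions number the other 9 libraries from 1 to 29, and the 3 B10 libraries carry higher numbers than these. Whether the numbers mark a batch is not stated. If they do, a batch difference cannot be told apart from the group difference wherever B10 is compared. In whole islets, fewer cells of a type and less RNA per cell cannot be told apart. The p-values of tests on single genes measure the spread between mice of a group.

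Slc2a2 RNA was lower in transgenic B10 islets than in any other group. The strain difference passed the threshold with the transgene and not without it. The test of these differences against each other did not pass (adjusted p = 0.132 by edgeR). Slc2a2 (ENSMUSG00000027690) lies on chromosome 3 at 28697903 to 28731359 on the plus strand of GRCm38. The window of 250 bases before its annotated start is shown because Slc2a2 had the widest differences of the 6 genes. RefSeq windows (GRCm38.p6, from the reference strain and not from NOD or B10 mice) were matched for 4 of the 6 genes, namely Slc2a2, Pcx, Gpd2 and Ucn3. Each was searched on both strands for CACGTG (the E-box bound by USF factors and the carbohydrate sensor ChREBP), TGCTGA (core of the Maf recognition element) and TAATTA (a homeodomain core), and capitals mark a match.
Slc2a2, chr3:28697653-28697902, plus strand: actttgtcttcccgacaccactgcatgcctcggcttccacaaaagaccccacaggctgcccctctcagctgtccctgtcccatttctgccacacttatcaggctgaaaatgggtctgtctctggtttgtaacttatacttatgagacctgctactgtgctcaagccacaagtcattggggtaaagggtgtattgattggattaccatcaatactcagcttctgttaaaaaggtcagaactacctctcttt
No match to the 3 motifs stood in these 250 bases of Slc2a2. Over all 32851 windows of this length, 6.02% hold CACGTG, 16.1% TGCTGA and 4.84% TAATTA.

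In B10 islets Slc2a2 stood at 721, 679 and 841 CPM in replicates 1, 2 and 3. In B10_insHEL it stood at 549.9, 298 and 417 CPM. These 3 libraries were the lowest of the 12, replicate 2 lowest of all, and none overlapped a library of another group. In NOD islets Slc2a2 stood at 751, 801 and 788 CPM. In NOD_insHEL it stood at 870.2, 877 and 829.7 CPM. The 6 NOD-background libraries lay close together, those with the transgene all above those without, while B10 replicate 3 reached into their range. The group means were 747 ± 83.7 CPM (SD, n = 3) in B10, 422 ± 126 (n = 3) in B10_insHEL, 779.98 ± 26.3 (n = 3) in NOD and 859 ± 25.4 (n = 3) in NOD_insHEL.

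Among transgenic islets Slc2a2 was 2.04-fold higher in NOD_insHEL than in B10_insHEL (log2 difference 1.03, SE 0.16, adjusted p = 1.50e-04 by edgeR's quasi-likelihood test with Benjamini-Hochberg adjustment over 15352 genes). Without the transgene the log2 difference of Slc2a2 between NOD and B10 was 0.06 (SE 0.15, adjusted p = 0.796). Averaged over the transgene the strain difference passed the threshold (log2 difference 0.54, SE 0.11, adjusted p = 8.59e-04), but with the acinar score as a covariate it was 0.24 and no longer passed (adjusted p = 0.239). Slc2a2 fell to 0.564 of its B10 level in B10_insHEL (log2 difference -0.83, SE 0.16, adjusted p = 0.00366). In NOD islets the transgene difference was 0.14 and did not pass (SE 0.15, adjusted p = 0.638). B10_insHEL replicate 2, the library with the acinar score of 7.07, was also the lowest for Slc2a2. Without it the fall in B10 islets was -0.63 (adjusted p = 0.00377) and the strain difference among transgenic islets was 0.83 (adjusted p = 1.47e-04). The test of whether the transgene difference itself differed between strains gave a log2 value of 0.97 (SE 0.22, adjusted p = 0.132 by edgeR).

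**Figure D1:**
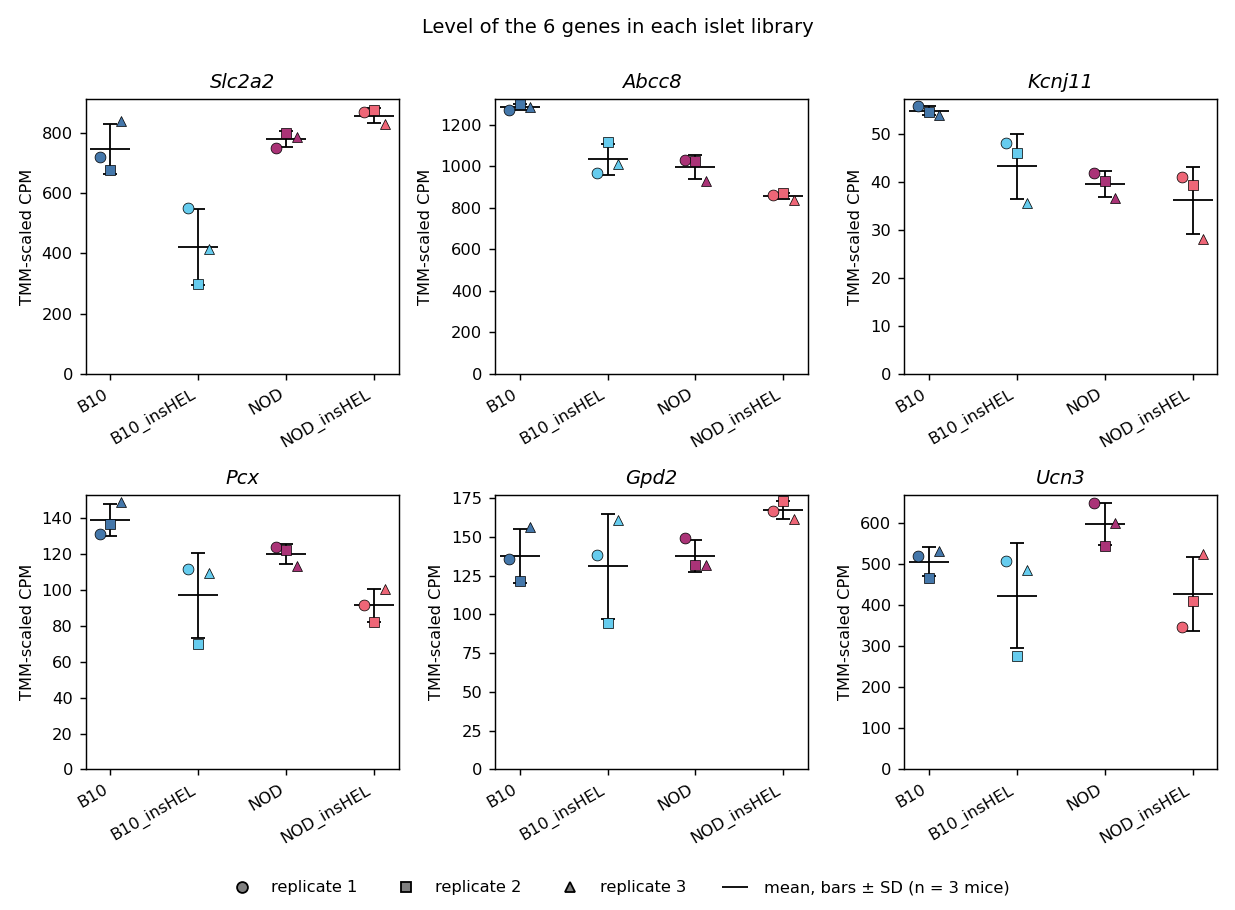
TMM-scaled CPM (vertical axis, starting at 0) of the 6 genes in each of the 12 libraries, by group; symbols are replicates, and bars are the mean ± SD of 3 mice. The 3 B10_insHEL libraries lie lowest for Slc2a2, at 298 to 549.9 CPM, and the 3 B10 libraries lie highest for Abcc8, at 1269.8 to 1299 CPM, and for Kcnj11, at 54.1 to 55.9 CPM.

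Abcc8 and Kcnj11, the KATP channel subunit genes, were both highest in B10 islets and lower in NOD islets. Abcc8 (ENSMUSG00000040136; chromosome 7, 46104523 to 46180033, minus strand) and Kcnj11 (ENSMUSG00000096146; chromosome 7, 46093953 to 46100764, minus strand) are neighbours 3759 bp apart. In B10 islets Abcc8 stood at 1269.8, 1299 and 1287 CPM in replicates 1 to 3. In B10_insHEL it stood at 969, 1117 and 1013 CPM. All 3 B10 libraries lay above the 9 others for Abcc8. In NOD islets Abcc8 stood at 1031, 1025 and 929 CPM. In NOD_insHEL it stood at 862, 871 and 839 CPM, the lowest 3 of the 12 libraries. The B10_insHEL and NOD ranges of Abcc8 overlapped, the others did not.

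Kcnj11 was counted far less often. In B10 islets it stood at 55.9, 54.7 and 54.1 CPM. In B10_insHEL it stood at 48.2, 46.0 and 35.6 CPM. As for Abcc8, the 3 B10 libraries lay above all others. In NOD islets Kcnj11 stood at 41.9, 40.3 and 36.7 CPM. In NOD_insHEL it stood at 41.0, 39.4 and 28.2 CPM. The lowest value, in NOD_insHEL replicate 3, rests on 60 counts in the shallowest library, and the 3 groups other than B10 overlapped.

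Without the transgene Abcc8 was lower in NOD than in B10 islets (log2 difference -0.37, SE 0.10, adjusted p = 0.00884 by edgeR). Kcnj11 was lower there too (log2 difference -0.47, SE 0.13, adjusted p = 0.0111). Averaged over the transgene the differences were -0.32 for Abcc8 (SE 0.07, adjusted p = 0.00152) and -0.34 for Kcnj11 (SE 0.09, adjusted p = 0.00863). Among transgenic islets neither gene passed, at -0.27 for Abcc8 (SE 0.10, adjusted p = 0.0850) and -0.22 for Kcnj11 (SE 0.14, adjusted p = 0.344). Abcc8 passed there in DESeq2 (-0.27, adjusted p = 0.0132). The B10 libraries, highest for both subunits, are also those with the high acinar score. With that score as a covariate the averaged differences were -0.24 for Abcc8 (adjusted p = 0.135) and -0.26 for Kcnj11 (adjusted p = 0.231), and those without the transgene were -0.25 (adjusted p = 0.354) and -0.35 (adjusted p = 0.313). Without NOD replicate 3, the lowest NOD library for both genes, the differences without the transgene were -0.32 for Abcc8 (adjusted p = 0.0562) and -0.42 for Kcnj11 (adjusted p = 0.0556).

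The transgene differences of both subunits missed the threshold. In B10 islets they were -0.32 for Abcc8 (SE 0.10, adjusted p = 0.0598) and -0.34 for Kcnj11 (SE 0.13, adjusted p = 0.117). Abcc8 passed without B10_insHEL replicate 2, its highest B10_insHEL library (-0.38, adjusted p = 0.0360), and in DESeq2 (-0.32, adjusted p = 0.00238). In NOD islets they were -0.22 for Abcc8 (SE 0.10, adjusted p = 0.196) and -0.09 for Kcnj11 (SE 0.14, adjusted p = 0.738).

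The ratio of Kcnj11 to Abcc8 within a library does not depend on library size. Per kilobase of exon it was 0.0940 ± 0.00249 (SD, n = 3) in B10, 0.0925 ± 0.0162 (n = 3) in B10_insHEL, 0.0876 ± 0.00147 (n = 3) in NOD and 0.0928 ± 0.0165 (n = 3) in NOD_insHEL. Over the 12 libraries it ran from 0.0739 to 0.110, both extremes lying in transgenic islets, while the 3 B10 libraries lay between 0.0925 and 0.0969. The mean log2 ratio differed between 6 NOD-background and 6 B10-background libraries by -0.05, within the spread between libraries (two-sided exact permutation test, p = 0.610, adjusted p = 0.916 over 3 comparisons). This test regroups all 12 libraries without regard to the transgene, so its spread also includes that between transgenic and non-transgenic mice. Without the transgene the difference was -0.10, with all 3 NOD libraries below all 3 B10 libraries (exact permutation p = 0.1, the smallest that 3 against 3 allows, adjusted p = 0.3). Among transgenic islets it was 0.0028 (exact permutation p = 1.0, adjusted p = 1.0).

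**Figure D2:**
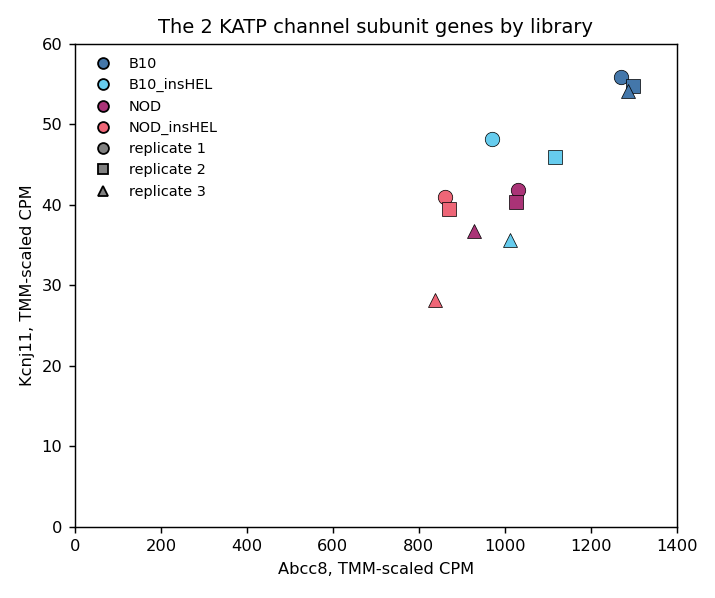
Kcnj11 against Abcc8, both in TMM-scaled CPM with axes starting at 0, 1 point per library; colour gives the group and symbol the replicate. The 3 B10 libraries stand at the top right, at 54.1 to 55.9 CPM of Kcnj11, and NOD_insHEL replicate 3 stands lowest, at 28.2 CPM.

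Pcx, which makes oxaloacetate from pyruvate, was lower in transgenic than in non-transgenic B10 islets, with values in NOD islets on the same side. It (ENSMUSG00000024892) lies on chromosome 19 at 4510472 to 4621752 on the plus strand. Its upstream window is shown because it was the only window of the matched genes with any of the 3 motifs, an E-box near the 5′ end (capitals).
Pcx, chr19:4510222-4510471, plus strand: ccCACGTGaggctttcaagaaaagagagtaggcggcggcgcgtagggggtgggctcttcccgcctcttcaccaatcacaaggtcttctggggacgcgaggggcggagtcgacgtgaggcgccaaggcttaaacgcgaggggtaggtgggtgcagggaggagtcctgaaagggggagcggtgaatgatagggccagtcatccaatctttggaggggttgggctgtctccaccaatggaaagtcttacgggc
A further RefSeq start of Pcx, and the windows of Gpd2, held no match. In B10 islets Pcx stood at 131, 137 and 149 CPM in replicates 1 to 3. In B10_insHEL it stood at 112, 69.8 and 109.6 CPM. Every B10 library lay above every B10_insHEL library, and replicate 2 of B10_insHEL was the lowest of the 12. In NOD islets Pcx stood at 124, 122 and 113 CPM. In NOD_insHEL it stood at 91.7, 81.9 and 100.5 CPM, all below the NOD libraries.

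Pcx fell with the transgene in B10 islets (log2 difference -0.52, SE 0.14, adjusted p = 0.0282 by edgeR). In NOD islets the difference was -0.40 and missed the threshold (SE 0.14, adjusted p = 0.0904). The difference between these 2 transgene values was 0.12 (SE 0.20, adjusted p = 0.850). The call in B10 islets did not hold without B10_insHEL replicate 2 (-0.33, adjusted p = 0.0609) or without B10 replicate 1 (-0.56, adjusted p = 0.0584), 2 (-0.55, adjusted p = 0.0584) or 3 (-0.48, adjusted p = 0.102). In NOD islets Pcx passed without B10_insHEL replicate 2, which enters the shared estimate of spread (-0.40, adjusted p = 0.0164). Between strains the Pcx differences did not pass, at -0.15 averaged over the transgene (SE 0.10, adjusted p = 0.251), -0.21 without it (SE 0.14, adjusted p = 0.264) and -0.09 with it (SE 0.14, adjusted p = 0.738). Without B10_insHEL replicate 2 the averaged difference was -0.25 and passed (adjusted p = 0.0138). The acinar covariate leans largely on B10_insHEL replicate 2. With this covariate Pcx passed between strains, at -0.45 averaged over the transgene (adjusted p = 0.00771) and -0.68 without it (adjusted p = 0.0114). It also passed with the transgene there, at -1.02 in B10 (adjusted p = 0.00272) and -0.56 in NOD islets (adjusted p = 0.00858). Lrfn4 lies within the Pcx locus on the opposite strand at a mean of 20.6 CPM. The strand setting of the counting is not given in the sources used here, so reads of this pair may not have been told apart. Lrfn4 values lay on the same side as those of Pcx, at -0.87 with the transgene in NOD (adjusted p = 0.00912), -0.50 with it in B10 (adjusted p = 0.0675) and -0.33 between strains averaged over the transgene (adjusted p = 0.0453).

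Gpd2, the mitochondrial enzyme of the glycerol phosphate shuttle, showed no difference past the threshold in any of the 6 comparisons in the fit of 4 groups. Gpd2 (ENSMUSG00000026827) lies on chromosome 2 at 57237635 to 57370719 on the plus strand. In B10 islets it stood at 136, 121 and 156 CPM. In B10_insHEL it stood at 138, 94.1 and 161 CPM, replicate 2 again the lowest of the 12 libraries. B10 and B10_insHEL thus overlapped fully. In NOD islets Gpd2 stood at 149, 132 and 132 CPM. In NOD_insHEL it stood at 167, 173 and 162 CPM, the 3 highest values of the 12 libraries. The NOD_insHEL libraries lay above all B10_insHEL libraries (log2 difference 0.35, SE 0.15, adjusted p = 0.134 by edgeR) and all NOD libraries (0.28, SE 0.15, adjusted p = 0.264). Without B10_insHEL replicate 3, its highest library in that group, Gpd2 passed between the transgenic groups (0.53, adjusted p = 0.0235) and averaged over the transgene (0.26, adjusted p = 0.0437). Without B10_insHEL replicate 2 the difference between the transgenic groups was 0.16 (adjusted p = 0.459). The remaining Gpd2 differences were 0.18 between strains averaged over the transgene (SE 0.10, adjusted p = 0.202), 0.00 between NOD and B10 (SE 0.15, adjusted p = 0.995) and -0.07 for the transgene in B10 (SE 0.15, adjusted p = 0.828). With the acinar covariate the difference of Gpd2 between NOD and B10 was -0.53 and passed (adjusted p = 0.0469).

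Ucn3, a peptide gene that marks mature beta cells in mice, passed no test between groups in the fit of 4 groups, and passed with the transgene in some alternative fits. Ucn3 (ENSMUSG00000044988) lies on chromosome 13 at 3940688 to 3945349 on the minus strand. Its upstream window, read on the minus strand, is shown because Ucn3 had the highest level per kilobase of the 6 genes.
Ucn3, chr13:3945350-3945599, minus strand: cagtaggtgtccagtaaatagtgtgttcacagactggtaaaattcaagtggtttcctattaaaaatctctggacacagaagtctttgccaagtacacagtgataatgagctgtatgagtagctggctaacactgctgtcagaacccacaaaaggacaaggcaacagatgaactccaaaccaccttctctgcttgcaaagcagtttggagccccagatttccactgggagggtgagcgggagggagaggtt
None of the 3 motifs stood in this window of Ucn3. In B10 islets Ucn3 stood at 519, 465 and 531 CPM in replicates 1 to 3. In B10_insHEL it stood at 508, 275 and 486 CPM. Both groups overlapped, and replicate 2 of B10_insHEL was the lowest of the 12. In NOD islets Ucn3 stood at 647, 544 and 601 CPM, the 3 highest values. In NOD_insHEL it stood at 347, 409.9 and 525 CPM, all below the NOD libraries. The log2 difference was 0.24 between NOD and B10 (SE 0.20, adjusted p = 0.382 by edgeR) and 0.01 between NOD_insHEL and B10_insHEL (SE 0.20, adjusted p = 0.987). The averaged strain difference was 0.13 (SE 0.14, adjusted p = 0.522). The transgene difference was -0.26 in B10 (SE 0.20, adjusted p = 0.491) and -0.49 in NOD islets (SE 0.20, adjusted p = 0.149). Without B10_insHEL replicate 2, whose Ucn3 value widens the shared estimate of spread, the difference in NOD islets stayed at -0.49 and passed (adjusted p = 0.0173). It also passed in the fit of the NOD groups alone (-0.49, adjusted p = 0.0231). With the acinar covariate the transgene difference of Ucn3 was -0.95 in B10 (adjusted p = 0.0196) and -0.70 in NOD islets (adjusted p = 0.00637), past the threshold in both.

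Levels of different genes were compared per kilobase of annotated exon. Ucn3 was first in every library, with 330 ± 70.0 CPM per kilobase over the 12 libraries (SD). Abcc8 followed with 129 ± 20.6 and Slc2a2 with 122 ± 32.4 CPM per kilobase. These neighbours changed places: Abcc8 lay above Slc2a2 in 6 of the 12 libraries, the 3 B10 and the 3 B10_insHEL libraries, and below it in the 6 NOD-background libraries. Pcx (23.5 ± 4.84) and Gpd2 (21.9 ± 3.42 CPM per kilobase) came next, with Pcx above Gpd2 in 8 of 12 libraries. Kcnj11 was last in every library, with 11.8 ± 2.32 CPM per kilobase. The spread over libraries of Abcc8 and Slc2a2, and of Pcx and Gpd2, was wider than the gap between their means, whereas Ucn3 and Kcnj11 kept their places in 12 of 12 libraries.

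**Figure D3:**
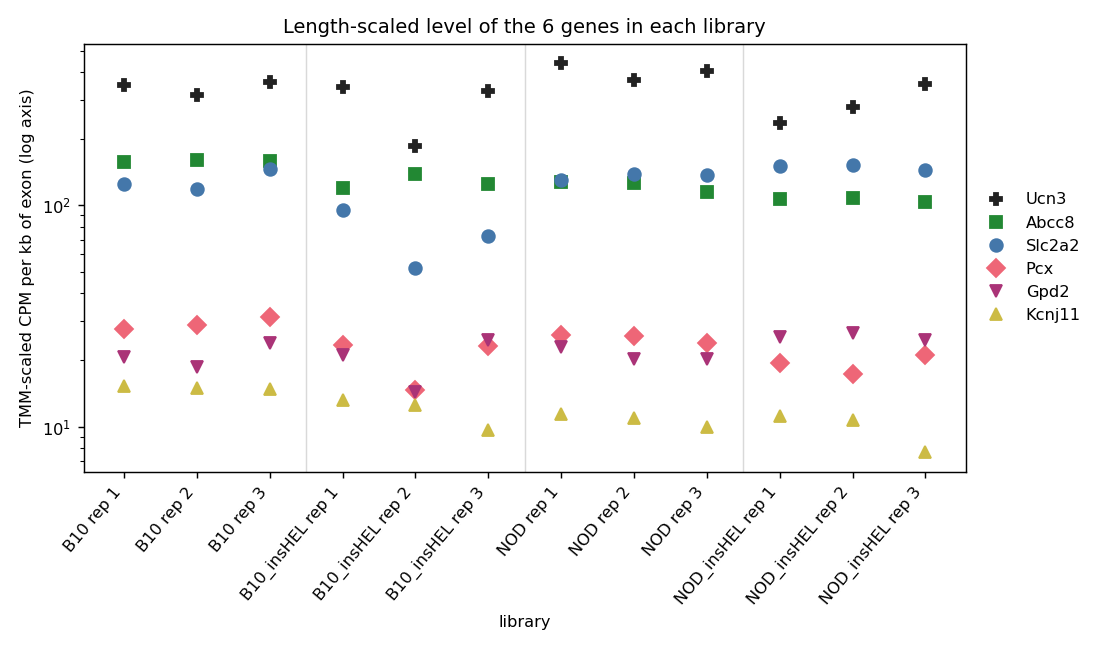
TMM-scaled CPM per kilobase of exon (log axis) of the 6 genes in each of the 12 libraries. Ucn3 is at the top and Kcnj11 at the bottom of every column, and Slc2a2 lies under Abcc8 in the 6 B10-background libraries and above it in the 6 NOD-background libraries.

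Counted over the 6 genes, 3 differed between strains averaged over the transgene (Slc2a2 higher in NOD, Abcc8 and Kcnj11 lower), against 33.3% of all genes tested in either direction, 15.7% higher and 17.6% lower. Their median log2 difference was -0.01, beside 0.01 over all genes. Without the transgene 2 differed (Abcc8 and Kcnj11 lower), against 28.4% of all genes and 14.9% lower. Among transgenic islets 1 differed (Slc2a2 higher), against 12.1% and 5.55% higher. In these 3 strain comparisons the counts are close to what the share of all genes would give for 6 genes, or too small to be read against it. With the transgene 2 of the 6 fell in B10 islets (Slc2a2 and Pcx), where 2.76% of all genes tested were lower and 6.85% changed in either direction. The median over the 6 genes was -0.33 there, beside -0.00035 over all genes. The 6 genes were chosen with earlier results of these data known, so this count and median are a description only. The Pcx call was lost in 6 of 21 alternative analyses. In NOD islets 0 of the 6 passed in edgeR or in DESeq2, against 7.06% of all genes called in edgeR. There 3 of the 6 had an unadjusted p under 0.05 (Abcc8, Pcx and Ucn3), a looser criterion than that behind the 7.06%. The share of all genes under this looser criterion was not counted. Abcc8 (unadjusted p = 0.0429 by edgeR) ranked 3353 by p among the 15352 genes tested, so many other genes met it too. The interaction called 0 of the 6 in edgeR, against 0.0586% of all genes. An unadjusted p under 0.05 was reached there by 1 of the 6 (Slc2a2), again with the share of all genes not counted. DESeq2 called Slc2a2 there (0.98, adjusted p = 0.00511). The interaction was 0.10 for Abcc8 (adjusted p = 0.814 by edgeR), 0.25 for Kcnj11 (adjusted p = 0.617), 0.35 for Gpd2 (adjusted p = 0.517) and -0.23 for Ucn3 (adjusted p = 0.775). The comparisons of each strain and of each transgene status share groups, so their values are not independent of each other.

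Counts by overlap alone are likewise a description of genes chosen with these data known. By overlap 4 of the 6 genes had no B10_insHEL library within the B10 range, all 4 lower (Slc2a2, Abcc8, Kcnj11 and Pcx), against 26.7% of all genes without overlap in either direction and 13.5% lower. In NOD islets 5 had no overlap between groups, Slc2a2 and Gpd2 higher with the transgene and Abcc8, Pcx and Ucn3 lower, against 26.6% of all genes in either direction. Between NOD and B10 there were 4 without overlap (Ucn3 higher, Abcc8, Kcnj11 and Pcx lower), against 47.5%, and between the transgenic groups 3 (Slc2a2 and Gpd2 higher, Abcc8 lower), against 27.0%. Over 6 against 6 libraries all 6 genes overlapped, while 11.3% of all genes did not.

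**Figure D4:**
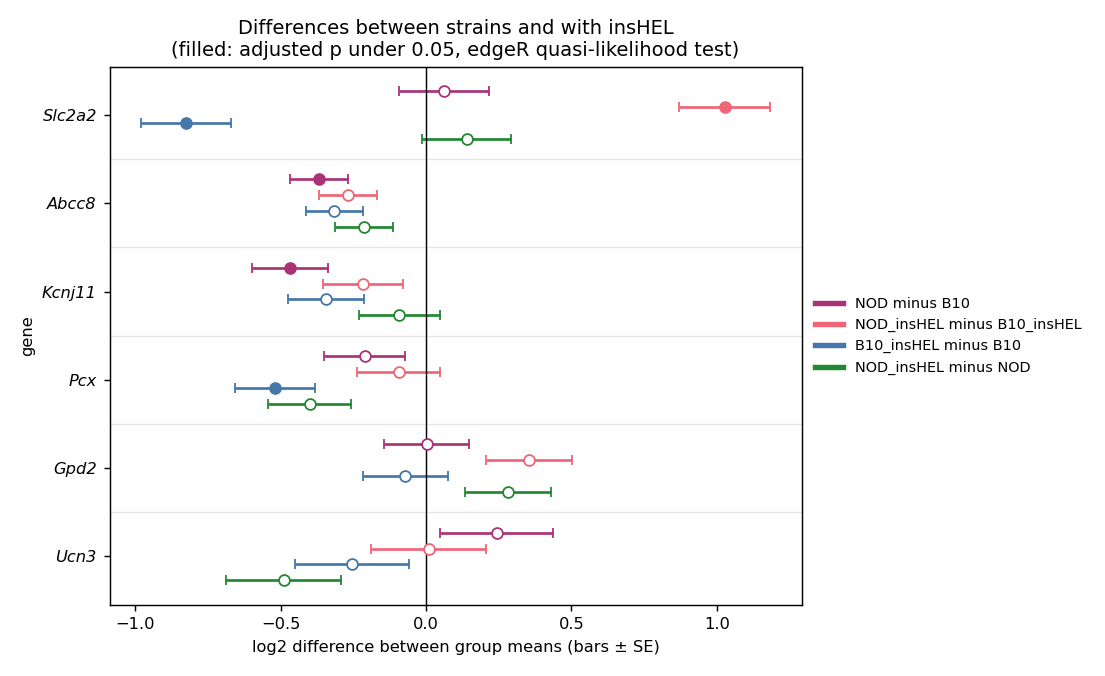
Log2 difference between group means (horizontal axis, bars ± SE) of the 6 genes in the 4 comparisons of 2 groups, coloured by comparison; filled points have an adjusted p under 0.05. Slc2a2 has the widest spread, from -0.83 with the transgene in B10 to 1.03 between the transgenic groups, and the filled points of Abcc8 and Kcnj11 are those of NOD against B10.

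Crhr1 and Crhr2, receptor genes of urocortin signalling, had low counts and stood higher in NOD-background than in B10-background islets. Of a list of 6 other genes of this system 2 passed the low-count filter, the CRF receptor genes Crhr1 and Crhr2, and both were higher in NOD-background islets, against 15.7% of all genes tested. Genes this low can pass the filter through the group where they are high. Their number and shared direction are therefore a description only, and their p-values carry the same limit. Crhr1, a receptor found on beta cells, stood at 1.46, 1.94 and 1.09 CPM in B10, and at 0.645, 0.348 and 0.103 CPM in B10_insHEL. It stood at 4.54, 10.1 and 9.505 CPM in NOD, and at 7.96, 6.20 and 3.76 CPM in NOD_insHEL. Every NOD-background library lay above every B10-background library (log2 difference averaged over the transgene 3.25, SE 0.30, adjusted p = 5.46e-08 by edgeR). Crhr2, the urocortin 3 receptor of delta cells, stood at 0.761, 1.08 and 0.0682 CPM in B10, and at 0.645, 0.609 and 0.722 CPM in B10_insHEL. It stood at 3.14, 2.54 and 3.60 CPM in NOD, and at 3.26, 2.90 and 5.63 CPM in NOD_insHEL, again without overlap between strains (log2 difference 2.30, SE 0.36, adjusted p = 4.71e-05). These are low levels: Crhr1 rests on 1 to 139 counts per library and Crhr2 on 1 to 38. Among the 6 delta cell markers, of which Crhr2 is itself a member, 4 were higher and 1 lower in NOD-background islets. Of all genes tested, 15.7% were higher and 17.6% lower in this comparison, averaged over the transgene. The delta cell list was read as a description. The summed level of the delta cell markers lay between 1584 and 2194 CPM in B10 and between 1348 and 2047 CPM in B10_insHEL. It lay between 1688 and 4585 CPM in NOD and between 2693 and 3845 CPM in NOD_insHEL, and the part of delta cell RNA in the Crhr2 difference was not tested. Crhr1 also fell with the transgene in B10 islets (log2 difference -2.04, SE 0.53, adjusted p = 0.0246), a call that did not hold without B10 replicate 1 (-2.07, adjusted p = 0.0584) or 2 (-1.81, adjusted p = 0.0937) or without B10_insHEL replicate 2 (-2.02, adjusted p = 0.0503) or 3 (-1.64, adjusted p = 0.125). With all libraries thinned to the depth of the shallowest, the Crhr1 value in B10 islets was -0.80 (adjusted p = 0.769 by edgeR). Crh and Ucn had 0 counts in all 12 libraries.

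**Figure D5:**
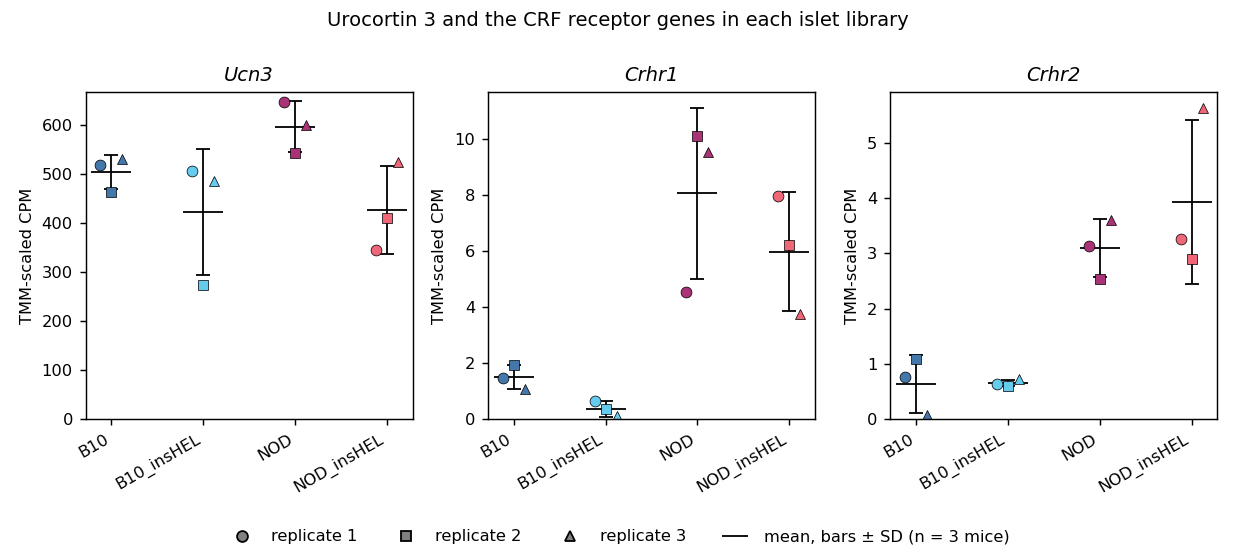
TMM-scaled CPM (vertical axes starting at 0, with a scale of their own in each panel) of Ucn3 and of the receptor genes Crhr1 and Crhr2 in each library; bars are the mean ± SD of 3 mice. Both receptor genes lie higher in all 6 NOD-background libraries than in all 6 B10-background libraries, while the Ucn3 ranges of the strains overlap.

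Around the KATP channel, a list of 8 other KATP and inward rectifier subunits had 7 genes tested, of which 3 were higher and 1 lower in NOD-background islets averaged over the transgene, against 15.7% and 17.6% of all genes tested. Their median log2 difference was 0.45, beside 0.01 over all genes. Kcnj6, a G-protein-gated potassium channel subunit, was lower (log2 difference -1.72, SE 0.22, adjusted p = 5.05e-06 by edgeR). It stood at 7.84 ± 0.68 CPM (SD, n = 3) in B10 and at 1.90 ± 0.82 CPM (n = 3) in NOD islets. Abcc9 and Kcnj8, the sulfonylurea receptor and pore subunits of the vascular KATP channel, were higher, by 0.63 (SE 0.10, adjusted p = 5.22e-05) and 1.05 (SE 0.23, adjusted p = 0.00125). Of the 8 endothelial markers 6 were higher and 1 lower averaged over the transgene, against 15.7% and 17.6% of all genes tested. Without the transgene 7 were higher and 0 lower, against 28.4% of all genes called in either direction. Among transgenic islets 0 were higher and 2 lower, against 12.1% called in either direction. The endothelial markers summed to between 894 and 979 CPM in B10 and between 1044 and 1115 CPM in B10_insHEL. In NOD they summed to between 1225 and 1730.2 CPM and in NOD_insHEL to between 936 and 1117 CPM. Of 8 stellate cell markers, which include Pdgfrb and Acta2, 2 were higher and 0 lower averaged over the transgene. They summed to between 222 and 414 CPM in B10 and between 194 and 433 in B10_insHEL. The sums were 286 to 504 CPM in NOD and 306 to 573 in NOD_insHEL. The part of vascular or stellate cell RNA in the differences of Abcc9 and Kcnj8 was not tested. Among transgenic islets Abcc9 passed (0.46, adjusted p = 0.0417 by edgeR) and Kcnj8 did not (0.76, adjusted p = 0.156). Kcnj12, another inward rectifier, was the 1 list gene that fell with the transgene in both strains, from 10.7 ± 1.69 CPM (SD, n = 3) in B10 to 2.13 ± 0.93 (n = 3) in B10_insHEL and from 7.71 ± 2.79 (n = 3) in NOD to 2.66 ± 1.77 (n = 3) in NOD_insHEL. Of all genes tested, 6.85% were called with the transgene in B10 and 7.06% in NOD islets, in either direction. The log2 differences of Kcnj12 were -2.29 in B10 (SE 0.34, adjusted p = 6.13e-04) and -1.90 in NOD islets (SE 0.39, adjusted p = 0.00912). The call in NOD islets did not hold without NOD_insHEL replicate 1 (-1.54, adjusted p = 0.0959) or 2 (-1.80, adjusted p = 0.0753).

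Among 19 tested genes of other glucose carriers and glycolysis, 5 were higher and 4 lower in NOD-background islets averaged over the transgene, against 15.7% and 17.6% of all genes tested, with a median of 0.10 beside 0.01 over all genes. Eno2, an enolase of neural and endocrine cells, was higher (log2 difference 0.94, SE 0.10, adjusted p = 3.56e-07 by edgeR). Pfkp, a phosphofructokinase, was lower (-0.83, SE 0.12, adjusted p = 1.77e-05). Eno1 was also lower (-1.40, SE 0.16, adjusted p = 1.01e-06), but it has near-identical copies in the mouse genome, so its count is uncertain. With the transgene 1 of the 19 rose in B10 islets, against 6.85% of all genes tested called in either direction. It was Pgk1 (0.82, SE 0.25, adjusted p = 0.0491), a gene with processed copies that passed in only 3 of 21 alternative analyses.

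Around Pcx, 33 genes of pyruvate entry, anaplerosis and pyruvate cycling were tested, and 3 were higher and 9 lower in NOD-background islets, against 15.7% and 17.6% of all genes tested, with a median of -0.07. Me3, a mitochondrial malic enzyme, was lower (log2 difference -1.39, SE 0.18, adjusted p = 4.66e-06 by edgeR). Pck2, the mitochondrial phosphoenolpyruvate carboxykinase, was lower (-0.51, SE 0.08, adjusted p = 4.17e-05), as was Pdha1, a subunit of pyruvate dehydrogenase (-0.44, SE 0.07, adjusted p = 4.85e-05). Pcx itself did not pass there. In NOD islets 3 of the 33 rose with the transgene, against 7.06% of all genes tested called in either direction. Among the 3 were Pdk1, a kinase that restrains pyruvate dehydrogenase (0.61, SE 0.15, adjusted p = 0.0189), and Me1, the cytosolic malic enzyme (0.53, SE 0.14, adjusted p = 0.0275). Pdk1 did not pass without NOD replicate 3 (0.57, adjusted p = 0.0703) or NOD_insHEL replicate 1 (0.62, adjusted p = 0.0796) or 2 (0.63, adjusted p = 0.0721). Me1 did not pass without NOD replicate 2 (0.51, adjusted p = 0.0963) or 3 (0.52, adjusted p = 0.0844) or NOD_insHEL replicate 1 (0.46, adjusted p = 0.157) or 2 (0.51, adjusted p = 0.118). Both calls were also lost with all libraries thinned to the depth of the shallowest. Pdk1 was then 0.27 (adjusted p = 0.464 by edgeR) and Me1 0.41 (adjusted p = 0.212).

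Around Gpd2, 12 genes of NADH shuttles and lactate handling were tested, and 1 was higher and 1 lower in NOD-background islets, against 15.7% and 17.6% of all genes tested. They were the lactate dehydrogenase subunits Ldha (0.40, SE 0.14, adjusted p = 0.0286 by edgeR) and Ldhb (-0.44, SE 0.14, adjusted p = 0.0170). The call for Ldha was lost in 6 of 20 alternative analyses, among them those without B10 replicate 2 (0.37, adjusted p = 0.0707) or 3 (0.34, adjusted p = 0.0818), B10_insHEL replicate 1 (0.34, adjusted p = 0.0648), NOD replicate 2 (0.32, adjusted p = 0.0934) or NOD_insHEL replicate 1 (0.36, adjusted p = 0.0868). Mdh1, the cytosolic malate dehydrogenase of the malate-aspartate shuttle, rose with the transgene in B10 (0.59, SE 0.12, adjusted p = 0.00524) and in NOD islets (0.47, SE 0.12, adjusted p = 0.0267). Its call in NOD islets was lost without any 1 of the 3 NOD libraries or NOD_insHEL replicate 1 or 2, with adjusted p up to 0.158.

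Of 17 tested transcription factors of mature beta cells, which include regulators of the 6 genes, 3 were higher and 4 lower in NOD-background islets averaged over the transgene, against 15.7% and 17.6% of all genes tested, with a median of -0.01. Ppargc1a, a coactivator of mitochondrial genes, was lower (log2 difference -1.77, SE 0.26, adjusted p = 2.83e-05 by edgeR). Rfx6 was also lower (-0.30, SE 0.09, adjusted p = 0.00991). With the transgene Mlxipl, which encodes ChREBP, fell in B10 islets from 381 ± 8.37 to 262 ± 29.5 CPM (SD, n = 3 each; -0.54, SE 0.13, adjusted p = 0.0162) and in NOD islets from 381 ± 27.3 to 246 ± 55.8 CPM (-0.64, SE 0.13, adjusted p = 0.00864). The call for Mlxipl was lost in B10 islets without B10 replicate 1 (adjusted p = 0.0546) or 2 (adjusted p = 0.0504) or B10_insHEL replicate 3 (adjusted p = 0.0657), and in NOD islets without NOD_insHEL replicate 1 (adjusted p = 0.0711) or 2 (adjusted p = 0.0579). Nkx6-1, a beta cell homeodomain factor, fell in B10 islets (-0.44, SE 0.12, adjusted p = 0.0352), and this call was lost without any 1 of the 3 B10 libraries or B10_insHEL replicate 1 or 2, with adjusted p up to 0.114. With the acinar score as a covariate the averaged strain calls of Kcnj8, Ldhb and Rfx6 were lost (adjusted p = 0.127, 0.370 and 0.730). So were the B10 transgene calls of Kcnj12, Nkx6-1, Mdh1, Crhr1, Mlxipl and Pgk1 (adjusted p from 0.0727 to 0.802) and the NOD transgene calls of Me1 and Mdh1 (adjusted p = 0.0527 and 0.0521).

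The genes whose log2 CPM followed each of the 6 most closely over the 12 libraries were taken from 9253 other genes with a mean of at least 10 CPM. Slc2a2 was followed by Ttc28 (Pearson r = 0.92), Fam151a (0.92) and Tmem150c (0.91). Abcc8 was followed by Plxnb2 (0.96), Map3k1 (0.95) and Sbf2 (0.95), and Kcnj11 by Wdtc1, Hipk2 and Gpatch2l (0.94 each). Pcx was followed by Kmt5a (0.96), Hpgds (0.96) and Adarb1 (0.92). Gpd2 was followed by Insm1 (0.94), Lyar (0.92) and Brox (0.90), and Ucn3 by Vegfb (0.91), Idh2 (0.91) and Pfkl (0.88). The points share groups, library scaling and depth, and these values are descriptions only.

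The nearest tested protein-coding genes on the chromosome did not move as the members did in every case. Beside Slc2a2, Tnik was higher in NOD-background islets averaged over the transgene (log2 difference 0.36, adjusted p = 0.00454 by edgeR) and Eif5a2 fell with the transgene in B10 islets (-0.66, adjusted p = 0.00768). On either side of the pair Abcc8 and Kcnj11, both of them lower, Ush1c was higher (0.30, adjusted p = 0.0120) and Nomo1 lower (-0.34, adjusted p = 0.0135). Beside Gpd2, which did not pass, Nr4a2 was lower (-1.15, adjusted p = 4.40e-05), and beside Ucn3, Akr1c14 was lower (-1.19, adjusted p = 1.19e-09).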

How the data were processed

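Total RNA of isolated islets from 12 mice was sequenced from stranded mRNA libraries, per the labels' protocols. The deposited values are raw counts of reads for each Ensembl gene in each library. The submitters' processing notes list TopHat2 2.0.8b, cutadapt, DESeq and HTSeq, and the genome build GRCm38. The annotation release, strand setting and counting mode are not given in the sources used here. Counts that were split between near-identical copies or overlapping genes cannot be separated from the table.

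Gene symbols, coordinates and exon lengths come from GENCODE vM21 (GRCm38), matched by identifier (36639 of 38561 identifiers, holding 99.8% of counts). Fits used edgeR 4.0.16 under R 4.3.3, with the 15352 genes that filterByExpr keeps, TMM scaling, 1 model with 4 group means over all 12 libraries, robust quasi-likelihood F-tests, two-sided, Benjamini-Hochberg adjustment over all genes tested, threshold 0.05. The common biological coefficient of variation was 0.142. The 6 comparisons are the strain difference averaged over the transgene, without it and with it, the transgene difference in B10 and in NOD islets, and the interaction (NOD transgene difference minus that in B10). The SE is the absolute log2 difference divided by the square root of F. Fits were tested on simulated data. Log2 CPM values carry a prior count of 2.

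Alternatives were DESeq2 1.42.0 (which tests with its own filter), other scalings, no low-count filter, a replicate block, covariates for acinar score and islet number, thinning to the shallowest library, fits of 2 groups only and each library left out in turn. Replicates differed by more than counting noise, so that no pair was taken as the same library. Members and gene lists were chosen with earlier results of these data known. Named are all 6 members, up to 3 genes per pathway list with the lowest adjusted p in the averaged strain difference and up to 2 in each transgene comparison, the 3 genes most correlated with each member, and the nearest tested protein-coding genes on each side; a few items of these lists are not reported here. Upstream sequences are RefSeq's on GRCm38.p6. Reads carry no molecular identifiers. Depth limits precision most for low-count genes in NOD_insHEL replicate 3 (2212062 counts), where a count of 0 allows up to 1.36 CPM (3 counts); this covers counting error only.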

Additional observations from a re-analysis of the deposited data

Results flagged for a closer look

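The Slc2a2 libraries with the transgene lay on opposite sides of those without it in the 2 strains: each of the 3 B10_insHEL libraries lay below each B10 library, and each of the 3 NOD_insHEL libraries lay above each NOD library. Of all genes tested, 26.7% had no overlap with the transgene in B10 and 26.6% in NOD islets, in either direction. The share of genes without overlap in both strains and in opposite directions was not counted. The log2 difference of Slc2a2 was -0.83 in B10 (adjusted p = 0.00366 by edgeR) and 0.14 in NOD islets, where it did not pass (adjusted p = 0.638). The difference between these values was 0.97 (SE 0.22, adjusted p = 0.132 by edgeR's quasi-likelihood test over all genes), so that it failed the correction. It also did not pass in 15 of 20 alternative analyses, with adjusted p up to 0.366. It passed in DESeq2 (0.98, adjusted p = 0.00511) and in edgeR with no low-count filter (0.99, adjusted p = 3.75e-05). It also passed without B10_insHEL replicate 1 (1.20, adjusted p = 0.00884) or replicate 2 (0.77, adjusted p = 0.0311). Acinar marker RNA was high in all 3 B10 libraries and in B10_insHEL replicate 2, and once that score was a covariate the value was 1.31 (adjusted p = 0.00805); its part in the difference was not tested beyond this. Groups of 3 libraries were not checked for single outlying libraries.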

How the results depend on the processing

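Of the values of single genes under an alternative, 1174 kept their direction and side of the threshold, 87 lost and 24 gained a call, and 29 changed direction. Slc2a2 kept its calls between the transgenic groups and with the transgene in B10 under all 21 alternatives. The number of the 6 genes called averaged over the transgene was 3, and 1 with an acinar covariate, which is Pcx and none of the 3. Between NOD and B10 it was 2 either way, but with that covariate these were Pcx and Gpd2 in place of Abcc8 and Kcnj11. Between the transgenic groups it was 1, and 2 in DESeq2 and with no low-count filter. With the transgene in B10 it was 2, 3 in DESeq2, with the acinar covariate and with TMM scaling that leaves out Ins1 and Ins2, and 1 with islet number as a covariate and in the fit of the 2 groups only. In NOD it was 0, but 1 with no filter, and 2 with the acinar covariate and in the fit of the 2 groups only. For the interaction it was 0, and 1 in DESeq2, with no filter and with the acinar covariate. With each library left out the number ran from 0 to 2 without the transgene, from 1 to 2 between the transgenic groups, from 1 to 2 with the transgene in B10, from 0 to 2 in NOD and from 0 to 1 for the interaction. The cause of these changes was not tested. Fits with the acinar covariate lean largely on B10_insHEL replicate 2, whose score lay far from the others of its group.

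Values that changed direction were small in the main analysis. With the acinar covariate they were -0.16 for Gpd2 and -0.28 for Ucn3 averaged over the transgene, -0.41 for Slc2a2, -0.53 for Gpd2 (adjusted p = 0.0469) and -0.41 for Ucn3 between NOD and B10, -0.16 for Ucn3 between the transgenic groups, -0.019 for Slc2a2 with the transgene in NOD and 0.25 for the Ucn3 interaction. Gpd2 between NOD and B10 was -0.0079 with median-of-ratios scaling, -0.0098 in DESeq2, -0.026 with no filter and -0.058 thinned, and with the transgene in B10 it was 0.064 with the islet covariate. Leaving out each library gave, between NOD and B10, -0.024 to 0.14 for Slc2a2 and -0.10 to 0.083 for Gpd2; between the transgenic groups, -0.29 to 0.016 for Pcx and -0.23 to 0.16 for Ucn3; with the transgene, -0.25 to 0.12 for Gpd2 in B10 and -0.19 to 0.020 for Kcnj11 in NOD; and -0.075 to 0.23 for the Pcx interaction. The log2 ratio of Kcnj11 to Abcc8 ran from -0.10 to 0.0063 over 6 against 6 libraries and from -0.12 to 0.16 between the transgenic groups, where thinning gave -0.032.

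Over all genes, calls fell with the acinar covariate from 5107 to 2241 averaged over the transgene, from 4353 to 1264 between NOD and B10 and from 1052 to 239 with the transgene in B10. Thinning gave 3271, 2532, 1107 (of 1850 between the transgenic groups), 588 and, in NOD, 459 (of 1084). The islet covariate gave 2688 between NOD and B10 and 578 with the transgene in B10, and fits of the 2 groups only gave 1197 between the transgenic groups and 646 with the transgene in B10. The interaction called 9 genes, 105 in DESeq2, 161 with no filter, 49 with the acinar and 4 with the islet covariate. Leaving out a library gave 2868 to 4863 between NOD and B10, 428 to 1566 with the transgene in B10, 107 to 1522 in NOD and 2 to 162 for the interaction. The replicate numbers are not said to pair the mice. Pairing was checked on log2 CPM after the mean of its group was subtracted for each gene. These deviations correlated at -0.10 to 0.08 in 18 pairs of same-numbered libraries. Of 12 libraries 5 correlated best on average with their own number, out of 3 possible numbers. These values would miss a weak pairing. A replicate block called 3, 2, 1, 2, 0 and 0 of the 6 genes, as without it, and 5023, 4263, 1857, 1032, 961 and 8 genes in all.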
